A study of Mus musculus with 6 samples.

Results

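This account covers 37 genes of the Notch pathway in embryonic mouse spleen: the receptors, their ligands, the Fringe glycosyltransferases, the proteases that cut the receptor, its ubiquitin ligases and adaptors, the nuclear complex and the Hes and Hey target genes. The genes were taken from a fixed list of symbols. A gene counted as found where a probe set carried that symbol and no other, and its brightest probe set over the 6 arrays was used. All 37 were found among 19938 genes with such a probe set, and all 37 passed the filter on low values. Total RNA of whole spleens at embryonic day E13.5 had been hybridised to 6 Affymetrix arrays, 3 labelled Tlx1 heterozygous and 3 labelled Tlx1 homozygous. Tlx1 is a homeobox gene needed for the spleen to form. The labels do not name the allele behind these words. They are taken to mean 2 or 1 altered copies of Tlx1, so that neither group would be wild type. Strain is not given either, nor the number of embryos behind an array, so p-values reflect how far these arrays differ within a group, and that spread could be technical.

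Notch receptors are single-pass membrane proteins that are activated by Delta-like or Jagged ligands on a neighbouring cell. Ligand binding exposes the receptor to ADAM proteases and then to gamma-secretase, and the freed intracellular part joins the DNA-binding protein Rbpj and a Mastermind coactivator to switch on genes such as Hes1, Hey1 and Nrarp. Fringe enzymes extend O-fucose sugars on the receptor's EGF repeats and thereby change which ligands it answers to. In developing organs the pathway is known for roles in arterial endothelium, in mural cells of vessels, in neural and endocrine progenitors and in blood cells.

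The targeted gene was read first as a check of the labels. Tlx1 measured 825, 706 and 719 intensity units on the heterozygous arrays and 171, 209 and 199.9 on the homozygous arrays. All homozygous values lay below all heterozygous values, with a log2 fold change of -1.95 ± 0.09 (SE). Intensities are linear GCRMA values as deposited, with array medians of 106 to 110, and fold changes are homozygous minus heterozygous on the log2(intensity + 1) scale. A gene is called where limma's adjusted p, over 18710 genes, is below 0.05. Markers of spleen mesenchyme were present in both groups, with a summed level of 10442 to 10599 on heterozygous and 8425 to 8993 on homozygous arrays. These sums include Tlx1 itself. Among the markers 5 of 7 were lower, including Tlx1, Nkx2-5 (-1.36) and Nkx3-2 (-1.23). Barx1 was higher on every homozygous array (0.27, limma adjusted p = 0.0517) and Pdgfra was at 0.12, both not called. Without homozygous array 1, or with the covariate for Y-linked genes described with the Notch calls, 3 of 7 were lower.

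Of the 37 Notch genes, 10 were called, 4 higher and 6 lower in homozygous spleens. Over all genes tested 17.0% were called, 10.4% higher and 6.56% lower, against 27.0%, 10.8% and 16.2% of the Notch genes. After a cyclic loess over the genes tested, 48.3% of all calls were higher, against 61.4% in the reported fit. The median log2 fold change of the Notch genes was 0.02, and that of all genes was 0.02. The list therefore had no common direction, and the calls were spread over different steps of the pathway. Lfng and Hes1 fell and Dll3 rose in every one of the 21 other settings and refits tried. Under the log2 floor of 6, Dll3 was kept through its homozygous values alone, so that setting gives its rise no support. The other 7 called genes changed by 0.33 or less on the log2 scale, and each lost its call in at least 4 of the 6 refits that left out 1 array. Called lower were 7 without homozygous array 3 and 2 without any other single array. Called higher were 4 without homozygous array 2 (Dll3, Notch2, Hes5 and Hes7), 2 without heterozygous array 3 or homozygous array 3, and 1 without heterozygous array 1 or 2 or homozygous array 1. The same 7 genes lost their calls with a covariate for the mean log2 level of 3 Y-linked genes, which was 8.76, 8.08 and 8.99 on the heterozygous and 8.07 to 8.22 on the homozygous arrays. Their estimates kept their signs while standard errors grew, as for Notch2 (0.25 ± 0.09 against 0.26 ± 0.06) and Notch1 (-0.21 ± 0.09 against -0.24 ± 0.06), so a lost call does not show that the difference went away.

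**Figure D1:**
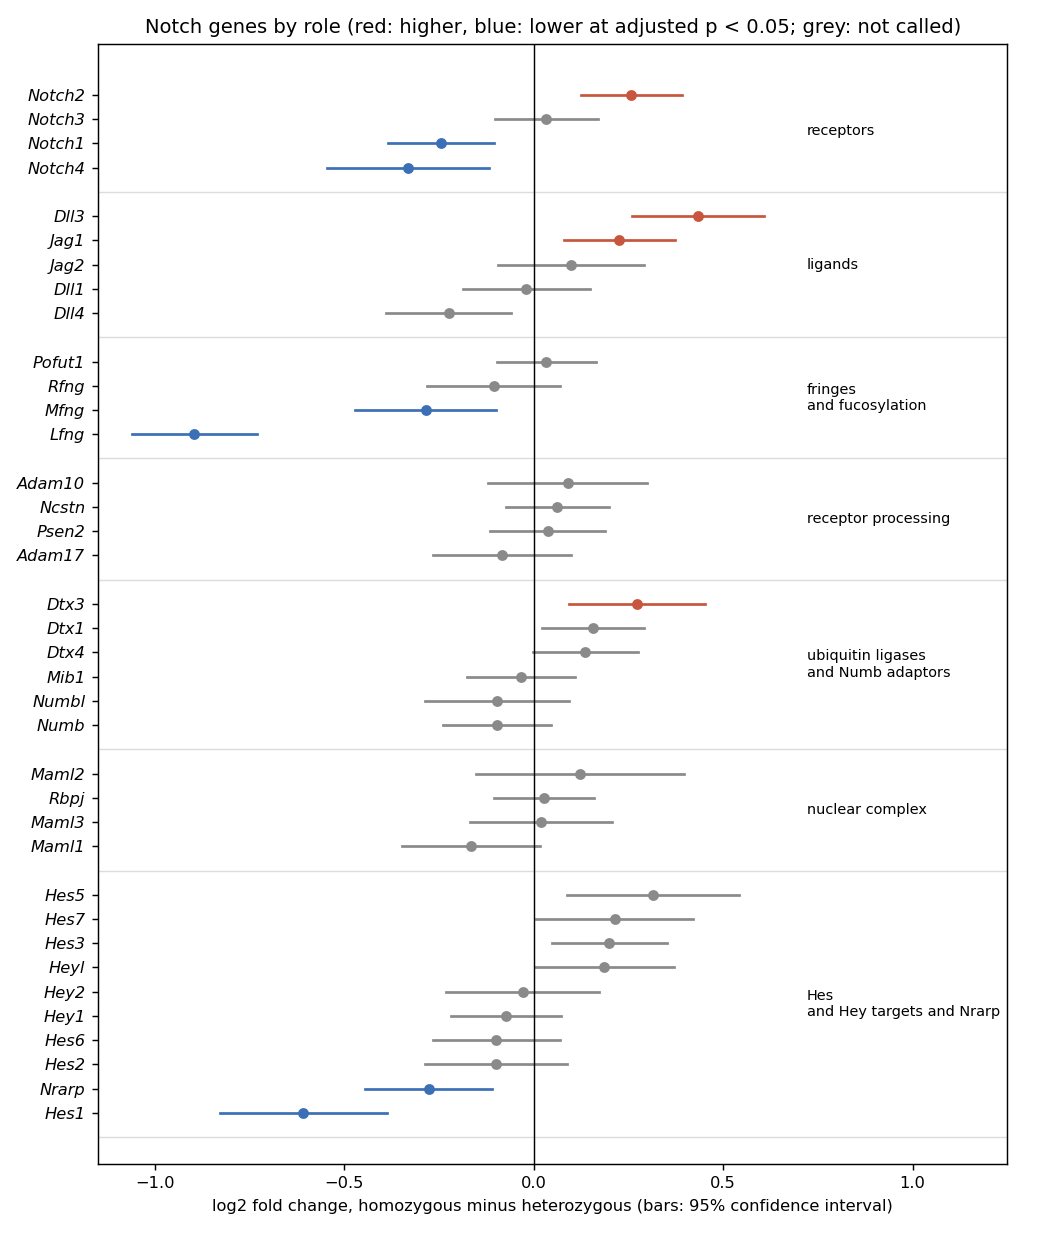
Log2 fold change, homozygous minus heterozygous, of the 37 Notch genes by role, each point with its 95% confidence interval from limma. Lfng (-0.90) and Hes1 (-0.61) lie farthest to the left and Dll3 (0.43) farthest to the right, while the receptor processing and nuclear complex genes all have intervals that include 0.

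Promoter windows from RefSeq (GRCm38.p6) were matched by symbol for 28 of the 37 genes, with 35 windows in all. Each window of 300 bases was searched on both strands for GTGGGAA, the core letters bound by Rbpj, and for CACGNG, a form of box bound by Hes and Hey proteins. The windows of 3 genes are shown because Lfng and Dll3 were called in opposite directions under every setting and because Nrarp is a feedback gene of the pathway. Only the 250 bases before the start site are printed, on the strand of the gene, with every match to either motif in capitals. Hes1, Mfng and Dtx3 had no entry.
Lfng, chr5:140607091-140607340, plus strand: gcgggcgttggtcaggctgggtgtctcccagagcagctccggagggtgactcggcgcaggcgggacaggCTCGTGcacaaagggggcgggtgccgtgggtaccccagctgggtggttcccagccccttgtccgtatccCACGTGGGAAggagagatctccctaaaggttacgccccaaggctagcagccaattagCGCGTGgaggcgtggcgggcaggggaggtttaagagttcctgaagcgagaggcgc
Nrarp, chr2:25180508-25180757, plus strand: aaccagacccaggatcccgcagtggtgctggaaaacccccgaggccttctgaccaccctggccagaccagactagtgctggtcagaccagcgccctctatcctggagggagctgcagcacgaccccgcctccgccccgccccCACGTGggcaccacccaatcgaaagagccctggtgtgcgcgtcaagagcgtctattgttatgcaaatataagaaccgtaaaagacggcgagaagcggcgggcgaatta
Dll3, chr7:28301786-28302035, minus strand: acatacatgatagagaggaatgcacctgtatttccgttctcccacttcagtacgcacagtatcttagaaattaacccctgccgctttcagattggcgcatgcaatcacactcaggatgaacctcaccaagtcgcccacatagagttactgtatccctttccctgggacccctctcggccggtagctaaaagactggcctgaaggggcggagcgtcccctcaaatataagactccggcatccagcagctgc

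In the Lfng window the motifs met in the run CACGTGGGAA. Its CACGTG began 112 bases and its GTGGGAA 109 bases before the start site, so that 3 bases belong to both. Further CACGNG matches, read on the opposite strand, began 181 and 55 bases before the start. The merged run was found in 35 of 32851 promoter windows of all genes, 0.107%. It was read off the Lfng window first, so this low share gives no support for a joined site in Lfng. Nrarp held a single CACGTG, 108 bases before its start, and the Dll3 window held neither motif. Over the windows of the Notch genes, 5 of 35 (14.3%) held GTGGGAA, against 6.38% of all windows, and they belonged to Lfng, Psen2, Hes5, Hes7 and Hey2. CACGNG was in 16 of 35 (45.7%), against 27.5% of all windows. A match is a description of the letters and does not show binding.

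Among the receptors, Notch1 and Notch4 fell and Notch2 rose. Notch1, a receptor required in blood and vessel development, measured 497, 463 and 482 on the heterozygous arrays and 399.7, 398 and 419 on the homozygous arrays. The groups did not overlap, and the log2 fold change was -0.24 ± 0.06 (SE; limma adjusted p = 0.0295). Notch4, which is known mainly from endothelium, measured 212, 204 and 227 against 166, 152 and 194. Its log2 fold change was -0.33 ± 0.09 (adjusted p = 0.0443), and homozygous array 3 lay closest to the heterozygous values. Notch2 went the other way, from 1223, 1239 and 1248 to 1428, 1491 and 1516, without overlap (0.26 ± 0.06, adjusted p = 0.022). Notch3, a receptor of mural cells, was at 547 ± 9.57 and 560 ± 20.5 (SD, n = 3), with overlapping groups and a 95% interval of -0.10 to 0.17. Each of these receptor calls depended on single arrays, and those of Notch1 and Notch4 also on the scaling. Notch1 was called in 1 of 6 refits, that without homozygous array 3 (-0.27 to -0.22 over all 6). With all arrays it was not called after quantile normalization (-0.18, adjusted p = 0.0913) or cyclic loess (-0.19, and -0.18 over the genes tested), and Notch4 not after quantile normalization (-0.29, adjusted p = 0.0837). Notch4 was likewise called without homozygous array 3 alone (-0.43 to -0.25), and Notch2 without heterozygous array 3 or homozygous array 2 (0.24 to 0.28).

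Among the ligands, Dll3 and Jag1 rose and no ligand fell in the reported fit. Dll3, a divergent Delta that sits largely inside the cell and does not activate the receptor from outside, measured 51.7, 52.8 and 55.7 on heterozygous arrays. It measured 77.1, 65.7 and 74.9 on homozygous arrays, so that the groups did not overlap and the log2 fold change was 0.43 ± 0.08 (adjusted p = 0.0087). All of these values lie below the array medians, and no background call per probe was used, so they do not by themselves show expression. Jag1, a ligand of endothelium, smooth muscle and epithelial progenitors, went from 586, 600.1 and 581 to 671, 735 and 663 (0.23 ± 0.06, adjusted p = 0.0456). Homozygous array 2 was the highest, and the call was lost without any 1 of the 6 arrays (0.18 to 0.25). Jag1 also lost its call with all arrays after median centring and without the filter on low values.

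The other ligands did not pass. Dll4, the ligand of sprouting and arterial endothelium, measured 176, 178 and 174 on heterozygous and 143, 143 and 165 on homozygous arrays. These groups did not overlap either, yet the log2 fold change of -0.22 ± 0.07 had an adjusted p of 0.0659, and it passed without homozygous array 3 (-0.29). With all 6 arrays Dll4 passed under 3 of 15 other settings, a log2 floor of 6 (adjusted p = 0.0446), cyclic loess over the genes tested (0.0447) and array weights (0.0229). Jag2 was at 0.10 (95% interval -0.10 to 0.29) and Dll1, a ligand of somites and neural progenitors, at -0.02 (-0.19 to 0.15), both with overlapping groups. The sign of Dll1 was not stable and turned under 5 settings, among them array weights (0.03).

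The largest change of the 37 genes was that of Lfng, lunatic fringe, which favours signalling from Delta over Jagged ligands. It measured 470.5, 478 and 445 on the heterozygous arrays and 241, 236 and 270.5 on the homozygous arrays. Every homozygous value was far below every heterozygous value, and the gene fell 1.86-fold, a log2 fold change of -0.90 ± 0.07 (adjusted p = 0.000282). Over all other settings the estimate stayed between -0.96 and -0.84. Mfng, manic fringe, a paralogue with the same enzymatic activity, went from 197, 189.5 and 179 to 151, 142 and 172. Its fall was smaller, at -0.29 ± 0.08 (adjusted p = 0.0457), with homozygous array 3 near the heterozygous range. It was called without that array alone (-0.36 to -0.23 over the 6 refits). Mfng also lost its call with all arrays after quantile normalization and without the filter on low values. Rfng, radical fringe, had overlapping groups at 315 ± 23.8 and 293 ± 17.3 (SD, n = 3; -0.11, 95% interval -0.28 to 0.07). Pofut1, which adds the O-fucose that fringes extend, was at 366 ± 7.64 and 374 ± 7.02 (SD, n = 3), with an interval of -0.10 to 0.16. The interval of Lfng, -1.06 to -0.73, shares no value with those of the other 3 enzymes.

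**Figure D2:**
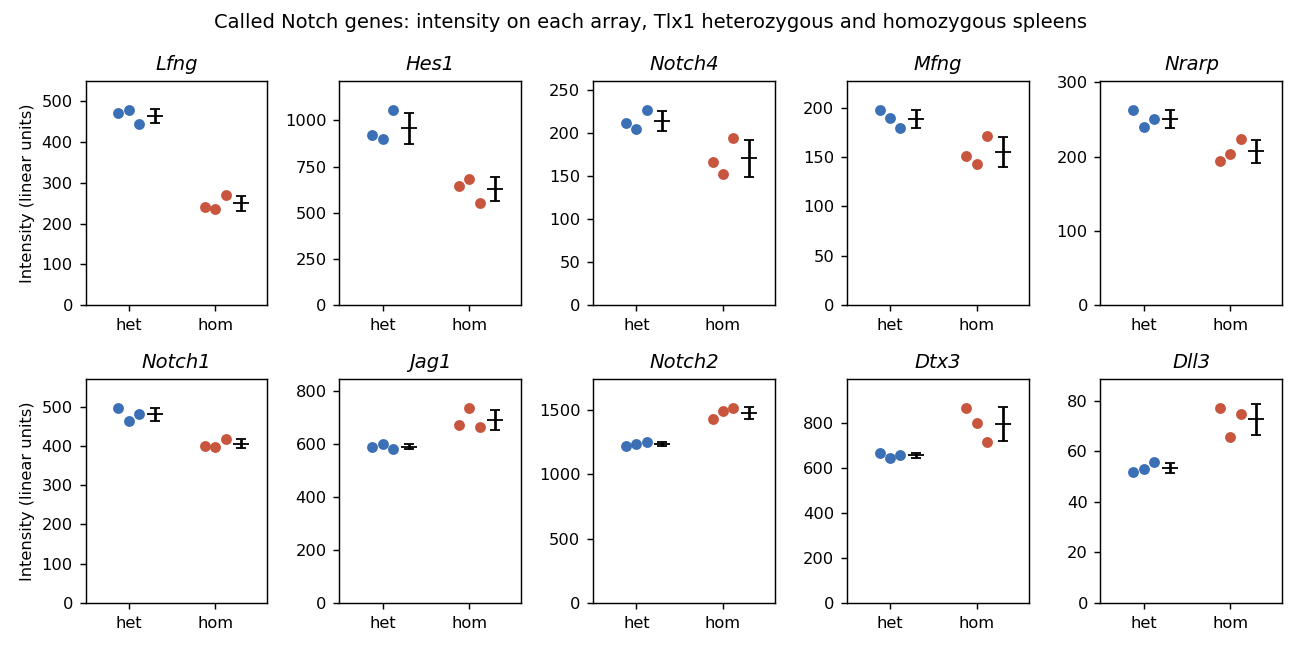
Intensity, in linear units from 0, of the 10 called Notch genes on each array, with 3 heterozygous (het) and 3 homozygous (hom) arrays as points and the mean with SD as bars. The groups do not overlap in any of the panels, and Lfng has the largest fold change of the panels, at 445 to 478 against 236 to 270.5.

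No gene of receptor cleavage passed. Adam10, the main protease of the ligand-bound receptor, was at 1737 ± 118 and 1853 ± 206 (SD, n = 3), with a log2 fold change of 0.09. Adam17, a related protease, measured 989.6, 896 and 952 on heterozygous and 890.2, 975 and 817 on homozygous arrays, which overlap (-0.08 ± 0.08, adjusted p = 0.496). Ncstn, the substrate-binding subunit of gamma-secretase, measured 893, 895 and 896 against 947, 964 and 894 (0.06 ± 0.06, adjusted p = 0.5). Its homozygous array 3 fell within the heterozygous range and the other 2 above it. Psen2, a catalytic subunit of the same complex, was at 0.04. All 4 intervals included 0, and together they ranged from -0.27 to 0.30.

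Of the ubiquitin ligases and adaptors 1 passed. Dtx3, a RING ligase of the Deltex family, went from 667, 641 and 655 to 865, 799.6 and 713 (0.27 ± 0.08, adjusted p = 0.047). The homozygous values were spread widely but all lay above the heterozygous ones, and the gene was called in 1 of 6 refits, that without homozygous array 3 (0.21 to 0.35). Dtx3 also lost its call with all arrays after median centring and without the filter on low values. Dtx1, a target as well as a regulator of the receptor, and Dtx4 were also higher on every homozygous array, at 0.16 (adjusted p = 0.0992) and 0.14 (adjusted p = 0.155), and did not pass. Mib1, which ubiquitinates ligands so that they can be taken up and signal, was at 889 ± 29.2 and 869.6 ± 35.3 (SD, n = 3; -0.03, turning to 0.02 after cyclic loess). Numb and Numbl, adaptors that lower receptor at the cell surface, were both at -0.10 (adjusted p = 0.307 and 0.448).

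No gene of the nuclear complex passed. Rbpj measured 792, 765 and 781 on heterozygous and 800.1, 808 and 775 on homozygous arrays, with a log2 fold change of 0.03 and a 95% interval of -0.10 to 0.16. Its second, dim probe set gave the same estimate of 0.03. Maml1, a Mastermind coactivator, measured 537, 519 and 549 against 430.0, 484 and 521 (-0.17 ± 0.08, adjusted p = 0.18). Maml2 measured 285, 339 and 357 against 299, 389 and 383 (0.12 ± 0.12, adjusted p = 0.516), and its second probe set was at 0.09. Maml3 was at 0.02, and at -0.06 without homozygous array 3.

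Among the Hes and Hey targets and Nrarp, 2 of 10 fell and none rose in the reported fit. Hes1, a repressor and the most general target of the pathway, measured 922, 897 and 1054 on the heterozygous arrays and 647, 685 and 555 on the homozygous arrays. The groups were well apart, and the gene fell 1.52-fold (-0.61 ± 0.10, adjusted p = 0.00585), with estimates between -0.67 and -0.50 over all other settings. Nrarp, a small ankyrin repeat protein that is induced by the pathway and dampens it, went from 262, 239 and 251 to 194, 204 and 223. Its fall of -0.28 ± 0.07 (adjusted p = 0.0358) was without overlap but was called in 1 of 6 refits, that without homozygous array 3 (-0.33 to -0.23). Nrarp also lost its call with all arrays after quantile normalization and after cyclic loess.

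The endothelial and mural targets of the Hey family did not pass. Hey1 was at -0.07 (adjusted p = 0.451) and Hey2, which acts in arteries and heart, at -0.03 (adjusted p = 0.844), both with overlapping groups. Heyl, a target in mural cells, was higher on every homozygous array at 0.19 (adjusted p = 0.14). Of the other Hes genes, Hes5, a target typical of neural progenitors, measured 181, 173 and 182 against 234, 189 and 249. Its groups did not overlap and its log2 fold change of 0.32 ± 0.10 had an adjusted p of 0.0612, but homozygous array 2 stood close to the heterozygous values. With all 6 arrays Hes5 passed under 7 of 15 other settings, among them a log2 floor of 6 (adjusted p = 0.0418), a pseudocount of 16 (0.0407), a variance trend (0.0353) and array weights (0.0239). Without homozygous array 2 it passed at 0.43, as did Hes7, a gene of the somite clock, at 0.30 against 0.21 with all arrays. Hes3 was at 0.20 (adjusted p = 0.072), Hes2 at -0.10 and Hes6, an inhibitor of Hes1, at -0.10. Hes1 and Hes5 thus had estimates of opposite sign.

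Over the 37 genes, 18 had groups that did not overlap, 9 higher and 9 lower, which is 48.6%, against 38.3% of all genes tested (21.1% higher and 17.2% lower). The calls kept in every setting were those of Lfng, Hes1 and Dll3, with largest adjusted p values of 0.00316, 0.0425 and 0.0399 in limma. For Dll3 the log2 floor of 6 adds no support, as only its homozygous values reached that floor.

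**Figure D3:**
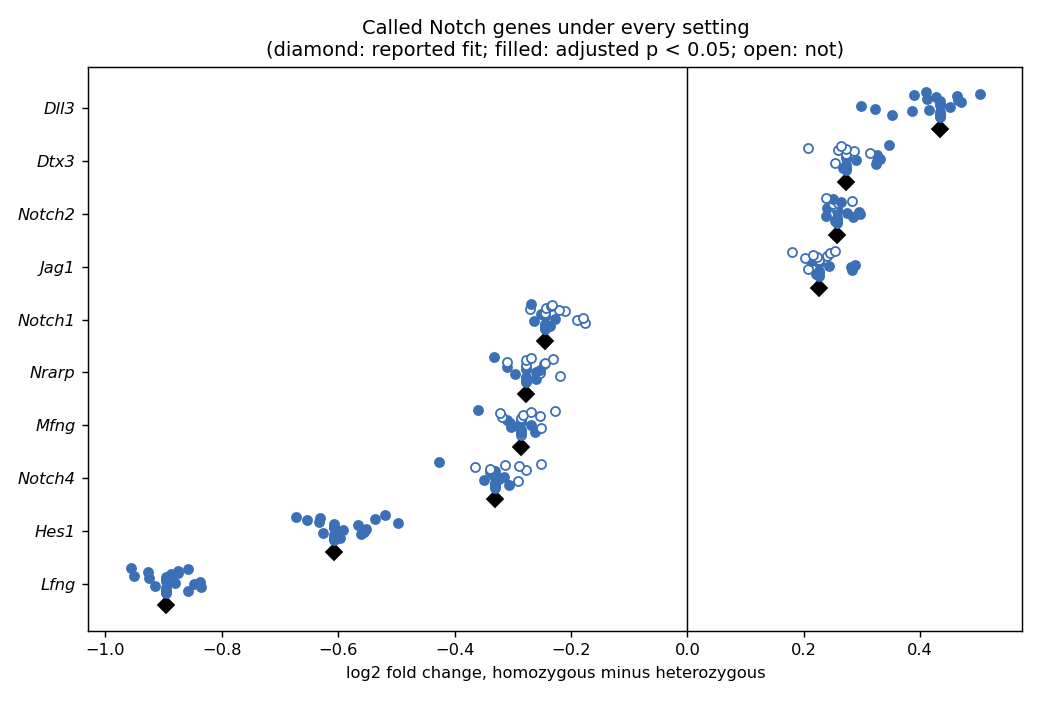
Log2 fold change of the 10 called Notch genes in the reported fit (diamonds) and in the 21 other settings and refits (circles, filled where the adjusted p was below 0.05, with the vertical offset only to part them). Lfng, Hes1 and Dll3 have filled circles alone, the others have open circles too, and no gene crosses 0.

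A further list held regulators of the pathway outside the 37 genes, of which 50 were measured. Of these 3 rose and 5 fell (8 of 50, against 17.0% of all genes tested), with a median of -0.01. Eogt, which adds O-GlcNAc to EGF repeats of Notch receptors, measured 322, 317 and 332 on heterozygous and 173, 185 and 157 on homozygous arrays. Its fall (-0.91 ± 0.07, adjusted p = 0.000286) was of the size of that of Lfng, so that these 2 sugar-transferring enzymes of the receptor both fell. None of the 6 other genes of modification and cleavage passed. Among ligand-like proteins Dlk1, a Delta homologue without the domain that engages the receptor, rose from 2483 ± 72.4 to 4222 ± 54.7 (SD, n = 3; 0.77 ± 0.06). Mfap5, a microfibril protein that binds Jag1, rose by 0.35 at a low level, from 67.3 ± 2.38 to 85.9 ± 6.29 (SD, n = 3). These means lie below the array medians, so they do not by themselves show expression. Mfap5 lost its call without homozygous array 1 (0.33), after cyclic loess (0.25, and 0.21 over the genes tested) and with the level of Y-linked genes as a covariate (0.30). Egfl7, a secreted protein of endothelium that can oppose Notch ligands, fell by 0.33. It lost its call without heterozygous array 1 (-0.28) or 2 (-0.31), without homozygous array 1 (-0.33) and with the same covariate (-0.37).

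Falls also passed for members of the Groucho family, corepressors used by Hes and Hey proteins. Tle2 went from 586, 547 and 505 to 313, 293 and 297 (-0.86 ± 0.07, adjusted p = 0.000321), with no overlap. Tle5, a short member that can oppose the others, fell by 0.45 and Tle6 by 0.46, while Tle1 (0.15), Tle3 (0.03) and Tle4 (-0.04) did not pass. Tle5 lost its call without homozygous array 1 (-0.44), and Tle6 without that array (-0.46) or without heterozygous array 1 (-0.41) or 2 (-0.40). Rbpjl, the pancreatic relative of Rbpj, rose by 0.35 at a low level of 77.5 ± 7.36 to 98.8 ± 8.21 (SD, n = 3), and passed in 2 of 6 refits, those without heterozygous array 3 or homozygous array 3 (0.29 to 0.42 over all 6). It did not pass after cyclic loess (0.26, and 0.23 over the genes tested). None of the 14 ubiquitin and trafficking regulators passed.

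Markers of other cell types differed between the same samples. Of 20 endothelium markers 15 fell and 1 rose, with a median of -0.39, and their summed level was 12696 to 13076 on heterozygous and 9295 to 9999 on homozygous arrays. Without homozygous array 1 the falls numbered 9 (median -0.35), and with the Y-linked covariate also 9. Pecam1, an adhesion molecule of endothelium, was at -0.44. Of Notch genes that endothelium also expresses, Notch1 (-0.24), Notch4 (-0.33) and Mfng (-0.29) fell, and Dll4 (-0.22) was not called. Jag1 went the other way (0.23), and Hey1 (-0.07) and Hey2 (-0.03) had overlapping groups. In whole organs, fewer cells of a type and less RNA per cell cannot be told apart. Among 9 arterial markers 2 fell, the connexins Gja4 (-0.37) and Gja5 (-0.32), and 1 rose. The riser, Nrp1, had the largest change of the 9 (0.66), from 588 ± 83.0 to 930 ± 132 (SD, n = 3). The summed level of the 9, Nrp1 included, overlapped between groups at 3217 to 3488 and 3392 to 3521. Neither connexin passed without heterozygous array 1 or 2, without homozygous array 3 or with the Y-linked covariate, and Gja5 also lost its call without heterozygous array 3 and after quantile or cyclic loess normalization (-0.44 to -0.29 for Gja4 and -0.39 to -0.27 for Gja5 over the 6 refits). Of 9 neural markers 5 rose and none fell (median 0.50), with a sum of 2746 to 2786 against 4281 to 4643. Gap43 made up most of these sums, at 1707 ± 49.7 and 2876 ± 125 (SD, n = 3), so they do not describe the list as a whole. Of Notch genes that neural progenitors express, Dll3 (0.43) rose, while Hes5 (0.32) and Dll1 (-0.02) were not called. Hes1, the most general target of the pathway, fell (-0.61). Means below the array medians in both groups were those of Sox10 and Elavl3, which were called, and of Phox2a, Ret, Elavl4 and Tubb3, which were not.

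No marker tested was at 0, and 9 of 12 neural and 11 of 12 pancreas markers could be tested. The pancreas and epithelium lists had medians above 0 as well. Of 11 pancreas markers 3 rose and 1 fell (median 0.36), with sums of 1677 to 2288 and 3097 to 6493, beside Rbpjl. Most of these sums came from Cpa1, an acinar enzyme (307 to 861 against 1600.4 to 1783, called), and Gcg, the glucagon gene. Gcg measured 98.0, 659 and 1032 against 3751, 760.7 and 2728, overlapped and was not called, so the sums do not describe the list as a whole. Of 12 epithelium markers 5 rose (median 0.30, sums 2924 to 3687 and 3800 to 4170). Both group means lay below the array medians for the called genes Cela1 of the pancreas list and Foxa1 of the epithelium list. The same held for Pdx1, Ptf1a, Neurog3, Nkx2-2, Cel, Ins2, Sox2 and Esrp1, which were not called. Such values do not by themselves show expression. Of 12 markers of mural and smooth muscle cells 4 rose and 1 fell (median 0.08, sums 7131 to 7318 and 7664 to 8101). White blood cell sums overlapped, at 2155 to 2234 and 2202 to 2267, and 7 of 10 erythroid markers fell (median -0.61; sums 13408 to 14537 and 10355 to 11157). Settings and single arrays moved these counts. Epithelium rises numbered 9 with median centring over the genes tested, 8 with a log2 floor of 6, a pseudocount of 16 or a variance trend and 3 after either cyclic loess. Pancreas rises numbered 5 with a variance trend or array weights and 1 after cyclic loess over the genes tested. Without heterozygous array 2 or homozygous array 1, none of the epithelium markers and 1 of the pancreas markers were called higher. The medians in these 2 refits stayed above 0, at 0.27 and 0.30 for epithelium and at 0.29 in both for pancreas. Epithelium rises numbered 3 without heterozygous array 3 and 2 without homozygous array 3, and pancreas rises 1 without homozygous array 3 and 7 without homozygous array 2. Erythroid falls numbered 3 without homozygous array 1 and 3 with the Y-linked covariate. The part of these cell types in the Notch results was not tested.

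**Figure D4:**
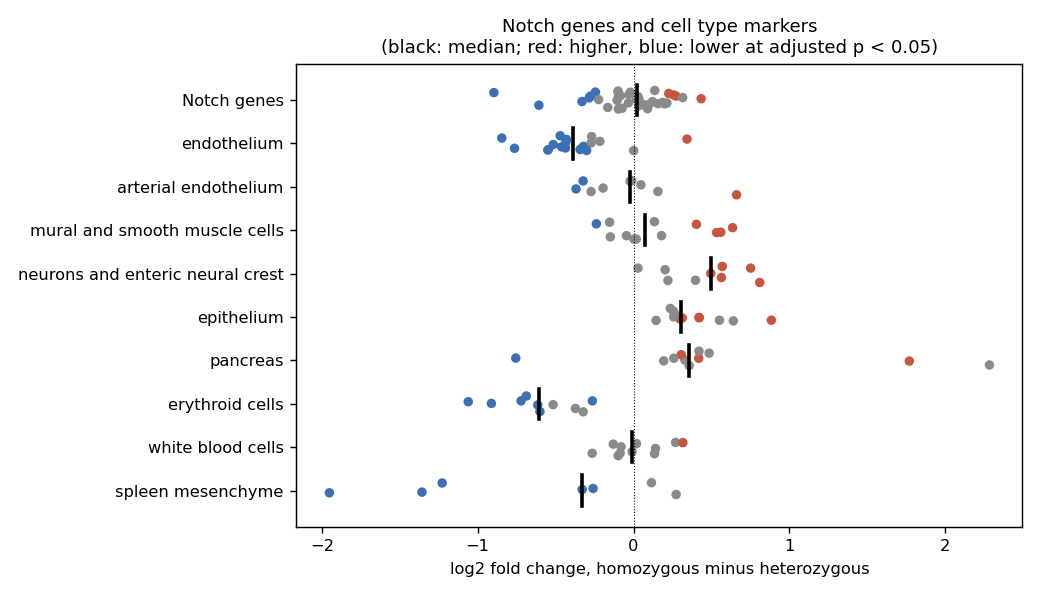
Log2 fold change, homozygous minus heterozygous, of each Notch gene and of each marker of 9 cell type lists, with the median of each list as a black bar and called genes in red (higher) or blue (lower). The Notch genes centre on 0.02, the endothelium list on -0.39 and the neural list on 0.50.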

How the data were processed

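Intensities, 1 per probe set and array on a linear scale, were deposited by the authors. Per the submitters' processing notes GCRMA made them, a method that models background from probe sequence and normalizes arrays to each other. Not given in the sources used here were its version and the build. Of 35512 probe sets, 21789 carried 1 symbol in the platform annotation, and several or none were left out. Probe sets were kept at a log2 value of at least 4 on at least 3 arrays. Using limma 3.58.1 under R 4.3.3 (lmFit, eBayes), the brightest per gene was fitted on log2(intensity + 1), 3 arrays against 3, two-sided, with Benjamini-Hochberg adjustment over 18710 genes.

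The members and lists were chosen with earlier results of these data known. Every Notch gene is reported, with values on every array for called ones and for up to 2 nearest the threshold in roles without calls. Other pathway genes are named where called, and marker genes as examples. Further genes with values were chosen after these were seen. The fit was tested on simulated data. Alternatives covered filter, pseudocount, probe set choice, scaling, variance model, array weights, replicate block, Y-linked covariate and refits without each array. The number of arrays limits precision.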

Additional observations from a re-analysis of the deposited data

How the results depend on the processing

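The 37 Notch genes gave 777 values under the alternatives, of which 686 kept their direction and their side of the threshold, 59 lost a call, 15 gained one and 17 changed sign. Notch genes called higher numbered 4, against 2 without the filter or with median centring and 1 with a covariate for Y-linked genes (1 to 4 without 1 array). Those called lower numbered 6, against 2 after quantile normalization, 2 with the Y-linked covariate and 2 to 7 without 1 array. Over all genes, 1951 higher and 1227 lower became 1140 and 507 with the covariate, 1092 higher after cyclic loess over the genes tested (an alternative chosen after seeing the data), and 699 to 2319 and 499 to 1244 without 1 array. Other pathway genes called higher, 3 in the reported fit, numbered 6 with a log2 floor of 6, 5 with a pseudocount of 16, after quantile normalization, with a robust variance trend or with median centring over the genes tested, 7 with array weights and 1 after either cyclic loess (1 to 5 without 1 array). Those called lower numbered 5, and 2 to 5 without 1 array. Signs turned for 4 genes close to 0, none of them called: Dll1 (0.033 with array weights, 0.059 with the covariate, -0.080 to 0.014 without 1 array), Mib1 (0.0076 after quantile normalization, 0.016 after cyclic loess and 0.020 over the genes tested, 0.00019 with the covariate), Maml3 (-0.038 with array weights, -0.013 with the covariate, -0.060 to 0.093 without 1 array) and Hey2 (0.049 after quantile normalization, 0.014 after cyclic loess and 0.023 over the genes tested, -0.090 to 0.045 without 1 array). The cause of these shifts was not tested.

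Replicate numbers are shared by the groups. Deviations of same-numbered arrays had correlations of -0.01, 0.04 and -0.11, and those of differently numbered arrays ran from -0.09 to 0.10. These values show no pairing, but with 3 arrays a group they cannot exclude one, and the labels do not say what the numbers mean. With the replicate block 3 Notch genes were higher and 3 lower, against 4 and 6: Notch1, Jag1, Mfng, Dtx3 and Nrarp lost their calls and Hes5 gained one. The block also gave 6 pancreas markers that rose, against 3.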
